A study of Mus musculus and Homo sapiens with 33 samples.

Results

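The S100 genes encode small calcium-binding proteins. The 8 described here are S100a1, S100a4, S100a6, S100a10, S100a11, S100a13, S100a14 and S100a16, taken by their symbols from an RNA-seq count matrix of KPL cells, a mouse lung adenocarcinoma line. They are 8 of the 38924 gene identifiers in the matrix, and all 8 were among the 13355 genes with enough reads to be tested. The RNA part of the study holds 6 polyadenylated-RNA libraries of this 1 line, 3 controls (named for ethanol, EtOH) and 3 from cells given 4-hydroxytamoxifen (4-OHT) for 72 h at a dose the labels write as 10 nm. Lin9, a subunit of the MuvB complex that works with B-Myb at cell-cycle genes, is deleted by this treatment according to the labels. The labels give neither the alleles nor the Cre recombinase of the line. They do not say that the 3 libraries of a group came from separate cultures, so the p-values rest on a spread that may be technical. No library received 4-OHT without the deletion, so the effects of the drug and of Lin9 loss cannot be told apart, and fewer cells of a kind and less RNA per cell cannot be told apart in bulk RNA. The study's other 27 samples are ChIP-seq samples and were not analysed here.

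S100 proteins carry EF-hand calcium-binding loops and work mostly as dimers. On binding calcium most of them expose a surface that takes up target proteins, among them annexins, which are calcium-dependent membrane-binding proteins. S100A10 is the exception, since it no longer needs calcium and sits with annexin A2 in a stable complex under the plasma membrane. S100A11 binds annexin A1, S100A6 binds annexin A11, and S100A4 binds the non-muscle myosin heavy chain encoded by Myh9. In epithelial tumours the family is best known through S100A4, which is linked to cell motility and metastasis.

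Library totals lay between 5859826 and 5913942 reads. Lin9 itself had 156, 124 and 159 reads in the control libraries and 108, 107 and 101 after 4-OHT. On the log2 scale it fell by 0.49 (SE 0.11), with an adjusted p of 0.0011 in edgeR's quasi-likelihood test. Every treated library lay below every control library, although reads from exons outside the deleted part may be counted here. Of the 13355 genes, 4.61% were called higher and 5.17% lower at an adjusted p under 0.05, and 9.79% in either direction. Summed epithelial markers (Epcam, Krt8, Krt18, Krt19, Cdh1 and Cldn4) stood at 5596 to 5671 CPM (the reads of a gene relative to the library total after TMM scaling) in controls and 5560 to 5730 after 4-OHT, and 2 of the 6, Epcam and Cdh1, fell. The 6 alveolar markers summed to 16.7 to 17.5 CPM in controls and 14 to 15.8 after 4-OHT, with Sftpc and Napsa at 0, so the defining markers of alveolar cells were absent or low in this line. Markers of fibroblasts (7.37 to 9.76 CPM against 5.57 to 8.48), endothelium (8.05 to 10.3 against 8.49 to 8.99) and immune cells (3.43 to 9.41 against 5.43 to 6.61) were low in both groups, and none of the genes tested in these 3 lists was called.

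After 4-OHT, 2 of the 8 S100 genes rose, S100a4 and S100a1, and none fell. Both changes were small, about 21.2% for S100a4 and 18.4% for S100a1. The share called higher, 25%, stands beside 4.61% of all genes, but it rests on 2 genes, 1 of which depended on single libraries. The 8 genes were also chosen with earlier results of these data known, so the share is a description. The median log2 fold change of the 8 was 0.01, against 0.0005 for all genes tested, with 4 values above 0 and 4 below. For 1 of the 8, S100a4, the groups of 3 libraries did not overlap, while 24.3% of all genes had groups that did not overlap. At an unadjusted p under 0.05 there were 3 of the 8, beside 21.2% of all genes, the third being S100a14, with a lower mean after 4-OHT.

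**Figure D1:**
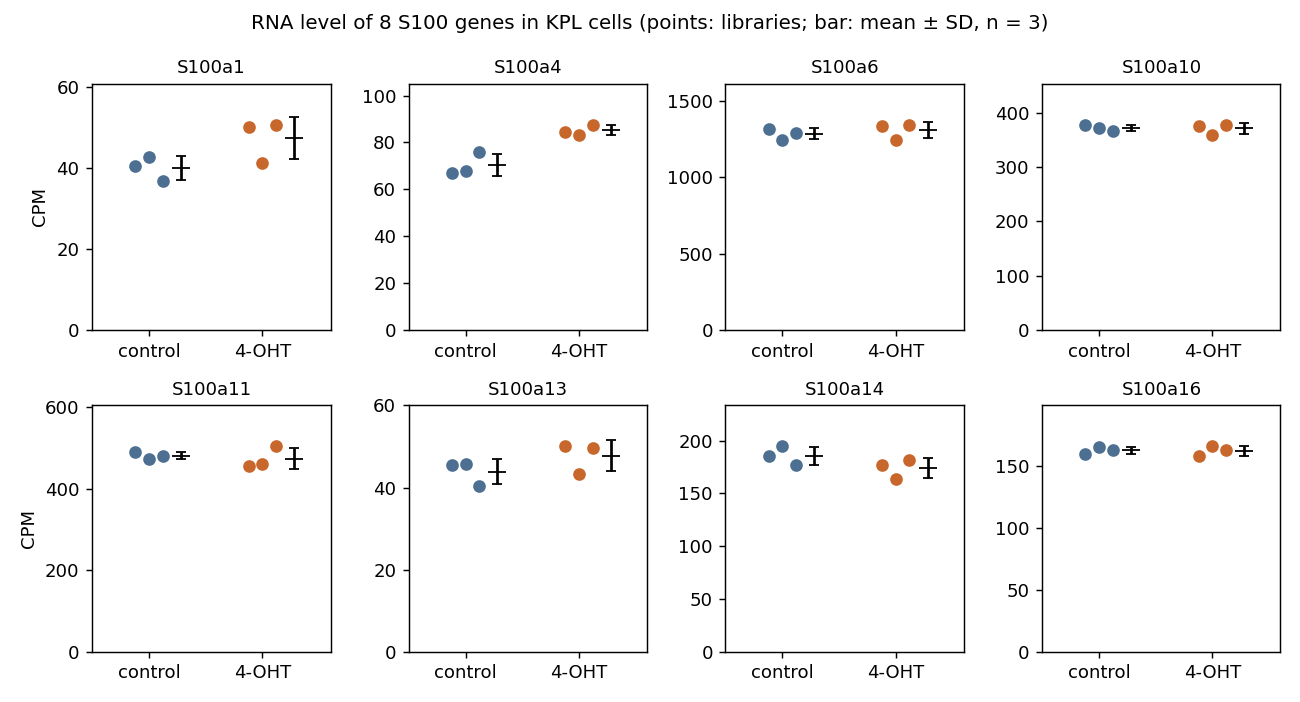
CPM of each of the 8 S100 genes in the 3 control and the 3 4-OHT libraries, 1 point per library, with the group mean. S100a4 is the 1 gene whose groups do not overlap, while S100a6, S100a10, S100a11 and S100a16 have almost the same mean in both groups.

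S100a4 (ENSMUSG00000001020), known as metastasin, lies on chromosome 3 at 90603770 to 90606045 of GRCm38.p6. It was measured at 67.1, 68.0 and 75.8 CPM in the control libraries and at 84.6, 83.3 and 87.6 CPM after 4-OHT. The lowest treated library was above the highest control library. The means were 70.3 ± 4.76 and 85.2 ± 2.17 CPM (SD, n = 3 each). Its log2 fold change was 0.28 (SE 0.06, adjusted p = 0.000502 in edgeR), a rise of 21.2% with a 95% interval of 11.5 to 31.7%. It stayed called with every library left out in turn (edgeR, highest adjusted p 0.0167) and in DESeq2 (adjusted p = 0.0246). Its partner Myh9 stood at 1987.6 ± 9.21 CPM in controls and 2021.1 ± 63.8 CPM after 4-OHT (SD, n = 3 each), a difference of 0.02 on the log2 scale that did not pass (adjusted p = 0.697, edgeR).

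S100a1 (ENSMUSG00000044080, chromosome 3, 90511034 to 90514330), best known in heart and muscle as a regulator of calcium handling, was measured at 40.6, 42.8 and 36.9 CPM in controls. The treated libraries gave 50.2, 41.3 and 50.7 CPM, so libraries 1 and 3 were above all controls and library 2 was inside their range. The means were 40.1 ± 2.99 and 47.4 ± 5.28 CPM (SD, n = 3 each). In edgeR it rose by 0.24 on the log2 scale (SE 0.08, adjusted p = 0.0382), and the 95% interval of the rise ran from 5.88 to 32.3%. The call was lost in DESeq2 (adjusted p = 0.304). It was also lost in edgeR without control library 1 (0.0970), control library 3 (0.247), treated library 1 (0.186) or treated library 3 (0.204), all adjusted p.

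S100a13 (ENSMUSG00000042312, chromosome 3, 90514233 to 90524581), which takes part in the unconventional release of FGF1 and interleukin 1 alpha, overlaps S100a1 by 98 bp and is read from the opposite strand. The library kit is not named as directional, so reads in that overlap cannot be assigned to 1 of the genes with certainty. S100a13 was measured at 45.5, 45.7 and 40.3 CPM in controls and 50.02, 43.4 and 49.7 CPM after 4-OHT. The groups overlapped, again with treated library 2 as the low one. The log2 fold change of 0.12 (SE 0.08) did not pass (adjusted p = 0.388, edgeR), with an interval of -2.21 to 21.1%. It was 0.06 without control library 3 and 0.19 without treated library 2, neither of them called. The reads of S100a1 per read of S100a13 within each library were 0.891, 0.936 and 0.915 in controls and 1.00, 0.953 and 1.02 after 4-OHT.

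S100a6 (ENSMUSG00000001025, chromosome 3, 90612894 to 90614414), called calcyclin, had the most reads of the 8, 45726 over the 6 libraries. Its values were 1320, 1248 and 1289 CPM in controls and 1339, 1248 and 1346 CPM after 4-OHT. The library numbered 2 was the lowest of each group. S100a6 had a log2 fold change of 0.03 (SE 0.03, adjusted p = 0.664 in edgeR), and the interval of the change, -2.07 to 6.16%, leaves out a rise of the size measured for S100a4. Its binding partner Cacybp, the calcyclin-binding protein, stood at 108.5 ± 2.96 and 107.0 ± 2.67 CPM (SD, n = 3 each), with a log2 fold change of -0.02 (adjusted p = 0.889, edgeR).

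S100a10 (ENSMUSG00000041959, chromosome 3, 93555117 to 93564645), the annexin A2 partner also called p11, was measured at 378.1, 371.5 and 366.1 CPM in controls and 376.3, 359.1 and 378.1 CPM after 4-OHT. The means, 371.9 ± 6.0 and 371.2 ± 10.5 CPM (SD, n = 3 each), differed by less than the spread between libraries. EdgeR gave a log2 fold change of -0.0028 (SE 0.03, adjusted p = 0.983), with an interval of -4.86 to 4.70%. Ahnak, a very large scaffold protein that binds the S100A10 and annexin A2 complex, stood at 3952, 3680 and 3755 CPM in controls and 3408, 3749 and 2955 CPM after 4-OHT. Its log2 fold change of -0.17 did not pass (adjusted p = 0.451, edgeR), but without treated library 2 it was -0.25 and passed (adjusted p = 0.0122). Without treated library 3, the lowest of the 6, it was -0.09 and did not pass (adjusted p = 0.0603, edgeR).

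S100a11 (ENSMUSG00000027907, chromosome 3, 93520496 to 93526288), the annexin A1 partner, was measured at 490.6, 472.8 and 480.6 CPM in controls and 456.5, 461.2 and 503.7 CPM after 4-OHT. The treated libraries spread on both sides of the controls. The log2 fold change was -0.02 (SE 0.03, edgeR adjusted p = 0.784), with an interval of -6.08 to 3.17%.

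S100a14 (ENSMUSG00000042306, chromosome 3, 90526849 to 90528837), an S100 protein found mainly in epithelia, was measured at 185.5, 194.4 and 177.2 CPM in controls and 176.7, 163.6 and 181.6 CPM after 4-OHT. The highest treated library lay above the lowest control. Its log2 fold change of -0.09 (SE 0.04) was the lowest of the 8. It was at an unadjusted p of 0.0358 and an adjusted p of 0.195 (edgeR), with an interval of -11.9 to -0.444%. Without treated library 2 the log2 value was -0.05 (edgeR adjusted p = 0.638), and without control library 2 it was -0.06 (edgeR adjusted p = 0.571). The lowest value with 1 library left out was -0.13, without treated library 3, which was not called either (edgeR adjusted p = 0.0723). Of the 6 epithelial markers, Epcam (log2 fold change -0.38) and Cdh1 (-0.14) fell in the same libraries. The other 4 were not called, with log2 fold changes of 0.06 for Krt8, 0.04 for Krt19, -0.0007 for Krt18 and -0.07 for Cldn4. The part of these markers in the S100a14 value was not tested.

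S100a16 (ENSMUSG00000074457, chromosome 3, 90537254 to 90543151), a widely expressed S100 protein, was measured at 159.5, 165.5 and 163.5 CPM in controls and 158.0, 166.0 and 163.4 CPM after 4-OHT. The 2 groups covered nearly the same range. The log2 fold change was -0.0033 (SE 0.04, edgeR adjusted p = 0.985), with an interval of -6.13 to 6.05%.

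**Figure D2:**
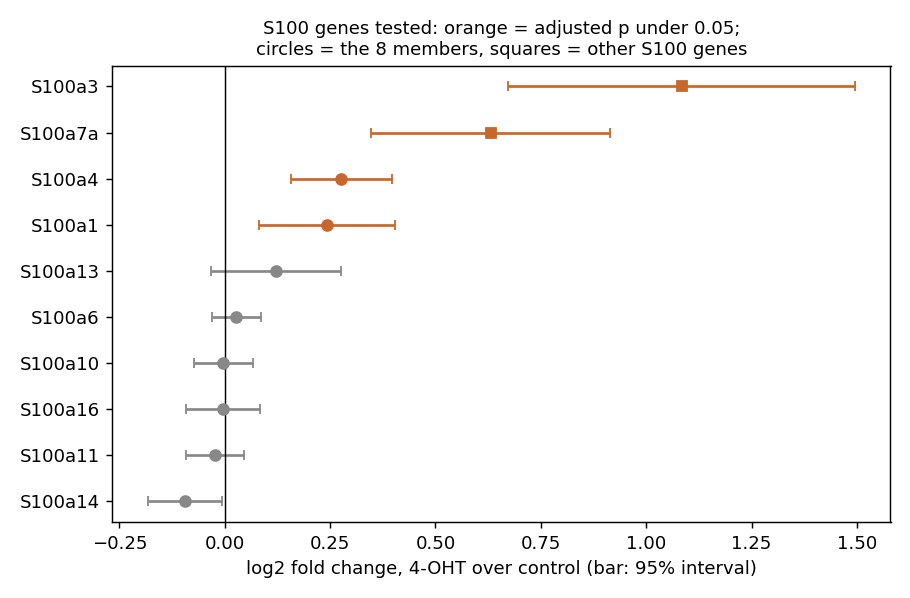
Log2 fold change of 4-OHT over control with its 95% interval for the 8 S100 genes and the 2 other S100 genes with enough reads, S100a3 and S100a7a. The intervals of S100a6, S100a10, S100a11, S100a13 and S100a16 include 0, and S100a3 has the widest interval.

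The counting error fell with depth, but the spread within groups did not always follow it. S100a10 and S100a16 varied within groups by 1.61 to 2.82% (coefficient of variation), near the counting error of 2.14 to 3.24% that their reads give. S100a6 varied by 2.78% in controls and 4.18% after 4-OHT, above its counting error of 1.15% and 1.14%. S100a11 varied by 1.85% and 5.49%, with a counting error of 1.89% in each group. S100a14 varied by 4.62% and 5.34%, above its counting error of 3.04% and 3.12%. S100a4 varied by 6.77% and 2.55%, with a counting error of 4.94% and 4.46%. S100a1 and S100a13, with 1541 and 1612 reads over the 6 libraries, had counting errors of 5.96 to 6.54%, so changes of a few percent were not detectable at this depth.

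The 8 genes together took 0.263 ± 0.00443% of all reads in controls and 0.267 ± 0.00933% after 4-OHT (SD, n = 3 each), a difference smaller than the spread of the treated libraries. S100a6 gave 48.7% of these reads in controls and 49.1% after 4-OHT, S100a11 gave 18.2% and 17.7%, and S100a10 gave 14.1% and 13.9%. These are shares of reads, which also depend on transcript length, and do not rank the genes by transcript number. The share of S100a4 went from 2.66 ± 0.198% to 3.19 ± 0.0537%, and that of S100a14 from 7.03 ± 0.372% to 6.51 ± 0.112% (SD, n = 3 each). In both cases the groups of libraries did not overlap, while those of every other share did. Of all genes, 24.3% had CPM groups that did not overlap. The CPM groups of S100a14 themselves overlapped. No test was run on these shares, which are tied to each other by their sum.

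The members lie in 2 stretches of chromosome 3. From S100a1 to S100a7a, 8 tested S100 genes follow each other over 147.1 kb, and S100a11 and S100a10 lie 2.86 Mb further on, over 44.2 kb. Genes that were called and genes that were not are interleaved. S100a3, which rose, ends 1063 bp before S100a4, while S100a6, whose interval includes 0, starts beyond S100a5 on the other side of S100a4. The nearest tested genes that are not S100 genes were not called. Chtop lies 1506 bp before the first stretch (log2 fold change -0.02, adjusted p = 0.909 in edgeR, interval -7.19 to 5.53%). 4930529C04Rik lies 413531 bp after it (0.16, adjusted p = 0.748 in edgeR, interval -15.9 to 48.1%). Tchh lies 71418 bp before the second stretch (0.12, adjusted p = 0.701 in edgeR, interval -10.2 to 31.65%). Them4 lies 745486 bp after it (0.13, adjusted p = 0.800 in edgeR, interval -17.6 to 45.2%). 4930529C04Rik and Them4 had at most 45 reads in a library. Of these neighbours, only Chtop has an interval that leaves out a rise of 21.2%, the size measured for S100a4.

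**Figure D3:**
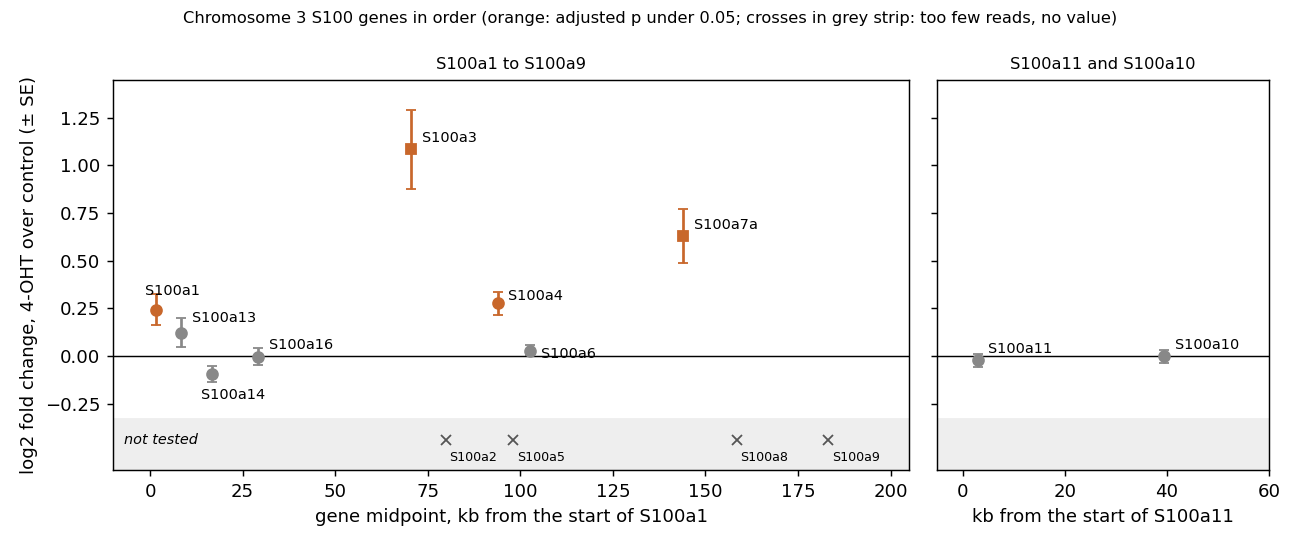
Log2 fold change (± SE) of the tested S100 genes against the midpoint of the gene, in kb from the start of S100a1 (left) or S100a11 (right). Circles are the 8 genes described here, squares are S100a3 and S100a7a, orange marks an adjusted p under 0.05, and the crosses in the grey strip are genes with too few reads to test. Among the tested genes, S100a3 and S100a4, both orange, come just before S100a6, which is near 0.

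Of 9 other S100 genes listed, 8 were in the matrix and 2 had enough reads to be tested, and both rose, beside 4.61% of all genes. The list was chosen with earlier results of these data known. S100a3, a protein of the hair cuticle, had 19, 23 and 30 reads in controls and 47, 52 and 56 after 4-OHT. Every treated library had more reads than every control. The means were 4.11 ± 0.956 and 8.75 ± 0.767 CPM (SD, n = 3 each), and the log2 fold change was 1.08 (SE 0.21, edgeR adjusted p = 5.379e-05), a rise of 112% with an interval of 59.4 to 182%. S100a7a, a relative of psoriasin from skin, had 63, 56 and 55 reads in controls and 83, 95 and 95 after 4-OHT, again without overlap. Its log2 fold change was 0.63 (SE 0.14, edgeR adjusted p = 0.000851), a rise of 54.9% with an interval of 27.2 to 88.5%. Both are expressed at low levels here, and both stayed called in DESeq2 (adjusted p 0.00505 and 0.0315). Neither passed a test against a 1.5-fold change (edgeR glmTreat, adjusted p 0.466 and 1). S100a8, S100a9 and S100g had 0 reads in all 6 libraries, S100a5 and S100z had at most 2, and S100b had 1 to 4. S100a2, which was not on the list, lies inside the RefSeq span of S100a3 and had at most 2 reads in a library. Of 7 fused S100 genes, which join an S100 domain to a long repeat in skin proteins, Tchh was tested and the other 6 had at most 1 read in a library.

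Promoter windows, from 250 bases before to 50 bases after a RefSeq start site in GRCm38.p6, were matched for 6 of the 8 genes and not for S100a10 and S100a14. They were searched on both strands for TTTGAA, the CHR element of MuvB target genes, and for GGAATG, bound by TEAD, the partner of YAP. The letters TGACTCA, which AP-1 binds, were searched likewise. So were the promoter elements TATAAA, known from the site recognised by the general transcription machinery, and CCAAT, which the factor NF-Y binds. None of these motifs contains another. The upstream 250 bases of S100a4 and S100a6 are shown because these are successive tested genes with and without a call. Those of S100a11 are shown because it holds more than 1 AP-1 match. All 3 read on the plus strand, at chr3:90603520-90603769, chr3:90612644-90612893 and chr3:93520246-93520495, and capitals mark the matched letters.
S100a4: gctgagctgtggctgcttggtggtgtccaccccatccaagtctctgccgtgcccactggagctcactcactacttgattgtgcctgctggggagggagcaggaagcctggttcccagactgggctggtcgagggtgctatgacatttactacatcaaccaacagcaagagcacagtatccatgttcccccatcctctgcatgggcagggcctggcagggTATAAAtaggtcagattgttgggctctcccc
S100a6: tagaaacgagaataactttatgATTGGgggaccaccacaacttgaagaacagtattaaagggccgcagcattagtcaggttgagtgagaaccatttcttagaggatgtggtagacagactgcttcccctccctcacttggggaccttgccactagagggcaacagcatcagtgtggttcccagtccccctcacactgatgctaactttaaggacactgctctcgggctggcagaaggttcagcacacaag
S100a11: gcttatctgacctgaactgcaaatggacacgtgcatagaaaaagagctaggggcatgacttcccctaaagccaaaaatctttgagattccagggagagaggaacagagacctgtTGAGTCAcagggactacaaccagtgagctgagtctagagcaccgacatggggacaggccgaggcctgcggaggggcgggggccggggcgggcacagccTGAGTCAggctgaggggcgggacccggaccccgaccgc
S100a4 holds TATAAA from position -31, letters found in 13.6% of all 32851 mouse windows of this length. S100a6 holds CCAAT on the minus strand from -228 (37.4% of windows). S100a11 holds TGACTCA on the minus strand at -136 and -38, and 5.20% of windows hold it at least once. The share of windows with more than 1 such match was not counted. The CHR letters (17.9% of windows) were found in 1 of the 2 windows of S100a16, at -194, and the TEAD letters (14.7% of windows) in none of the windows of the 6 genes. S100a1 and S100a13 held none of the 5. Outside the 8 genes, S100a3 has 4 windows, of which 1 holds the TEAD letters (at -179), 1 holds TATAAA at -52 and CCAAT at -75, and the other 2 hold none of the 5 motifs. S100a7a holds the TEAD letters at 3 places, and 43 of all windows (0.131%) hold them at 3 or more. That cut equals the count in S100a7a and was used for no other motif, so the share is a description. A 30-base piece of the S100a7a window holds 2 of its 3 places. It is chr3:90654123-90654152 on the plus strand, from -179 to -150 of the start site and inside the RefSeq span of the gene.
S100a7a: gacgatgtCATTCCaGGAATGcagttaagg
A match gives letters in a window, and whether a factor binds there was not tested.

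The annexins were measured as the partner family. Of 12 annexin genes, 10 were tested, 5 rose (50%) and none fell, beside 4.61% and 5.17% of all genes, with a median log2 fold change of 0.13. This list and the partner lists below were chosen with earlier results of these data known. The shares called are therefore a description and not an independent result about the family. Anxa5, which binds exposed phosphatidylserine, went from 690.1, 707.9 and 675.0 CPM to 810.7, 793.2 and 814.1 CPM. The groups were far apart for their spread, and the log2 fold change was 0.22 (SE 0.03, edgeR adjusted p = 1.218e-08). Anxa2, the partner of S100a10, went from 1179, 1179 and 1177 CPM to 1352, 1316 and 1367 CPM, and its rise on the log2 scale was 0.19 (SE 0.03, adjusted p = 1.165e-07 in edgeR). Anxa6 had a log2 fold change of 0.17 (edgeR adjusted p = 0.000923).

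Anxa1, the partner of S100a11, stood at 743.7, 759.9 and 744.7 CPM in controls and 783.4, 817.0 and 841.1 CPM after 4-OHT, without overlap. Its log2 fold change was 0.12 (edgeR adjusted p = 0.00396), and the call was lost without control library 1 (adjusted p = 0.0517) or treated library 3 (adjusted p = 0.0526). Anxa11, the partner of S100a6, had means of 163.8 ± 12.7 and 181.8 ± 7.82 CPM (SD, n = 3 each) with overlapping groups. Its log2 fold change was 0.15 (edgeR adjusted p = 0.0215). That call was lost in DESeq2 (adjusted p = 0.226) and in edgeR without control library 1 (0.170), control library 3 (0.221) or treated library 1 (0.178). Without control library 1, 3 annexins were called higher. Anxa8 and Anxa13 had 0 reads.

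Because the annexin partners rose and their S100 genes were not called, reads of 1 gene per read of the other were compared within each library, a description added after the values were seen. The pairs were picked for that difference, so the ratios restate it and no test of them is given. Reads of S100a10 per read of Anxa2 were 0.321, 0.315 and 0.311 in controls and 0.278, 0.273 and 0.277 after 4-OHT. All treated libraries were below all controls, with means of 0.316 ± 0.00479 and 0.276 ± 0.00279, lower by 12.6% (SD, n = 3 each). Reads of S100a11 per read of Anxa1 went from 0.642 ± 0.0189 to 0.582 ± 0.0172 (SD, n = 3 each), also without overlap. Reads of S100a6 per read of Anxa11 were 7.89 ± 0.767 and 7.22 ± 0.318 (SD, n = 3 each), with overlap.

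Among the S100 genes, reads of S100a4 per read of S100a6, the next tested gene, were 0.0508, 0.0545 and 0.0588 in controls and 0.0632, 0.0668 and 0.0650 after 4-OHT. The means of 0.0547 ± 0.00397 and 0.0650 ± 0.00179 (SD, n = 3 each) differed by 19.0%, without overlap. Reads of S100a1 per read of S100a13 had means of 0.914 ± 0.0226 and 0.992 ± 0.0349 (SD, n = 3 each), without overlap. Both pairs set a called gene over a gene that was not called, and both were added after the values were seen. Their ratios restate that difference, and no test of them is given.

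**Figure D4:**
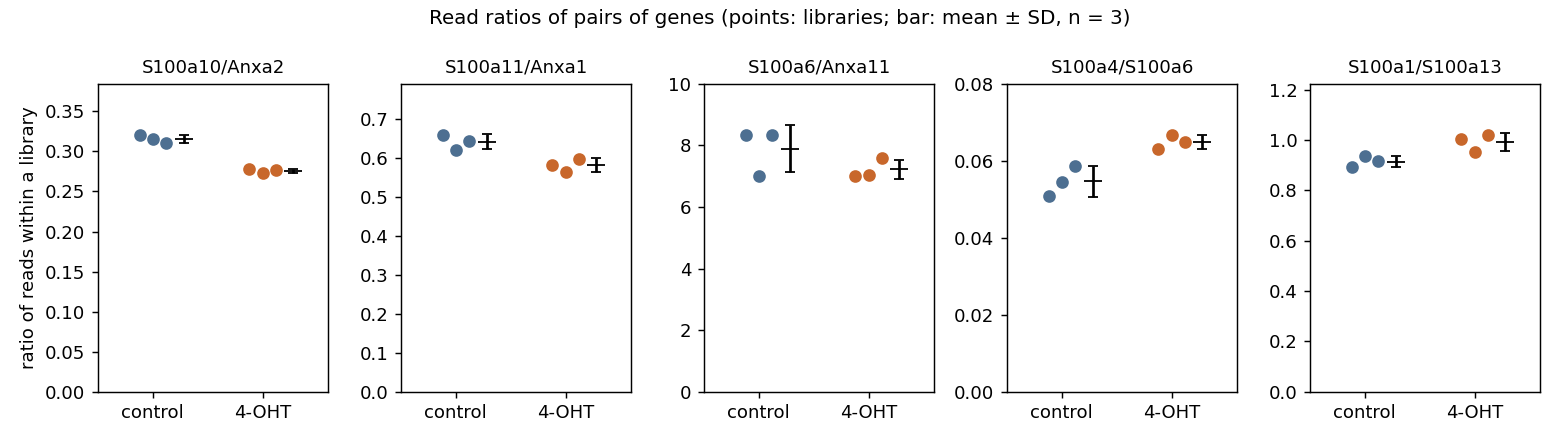
Reads of 1 gene per read of another within each library, for 5 pairs, with controls beside 4-OHT libraries. The S100a10 to Anxa2 and S100a11 to Anxa1 ratios are lower in every treated library, the S100a4 to S100a6 and S100a1 to S100a13 ratios are higher, and those of S100a6 to Anxa11 overlap.

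Of 22 genes listed as S100 binding partners, 16 were tested, 1 rose (6.25%) and none fell, near the 4.61% of all genes called higher, and the median log2 fold change was 0.07. The 1 that rose was Plat, tissue plasminogen activator, which the S100A10 and annexin A2 complex binds at the cell surface. It went from 24.5, 30.6 and 27.8 CPM to 37.1, 41.7 and 35.6 CPM, rose by 0.47 on the log2 scale (SE 0.09, adjusted p = 0.000108 in edgeR) and stayed called with every library left out. Without treated library 2, the list had 1 gene called lower, Ahnak. Without control library 2, or without treated library 3, the list had 2 genes called higher.

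Of 30 other EF-hand genes, 25 were tested, 3 rose and 1 fell, so that 16% were called beside 9.79% of all genes, with a median log2 fold change of 0.04. Calm2, 1 of the 3 calmodulin genes, fell from 265.8 ± 7.92 to 217.9 ± 9.68 CPM (SD, n = 3 each), with a log2 value of -0.29 (adjusted p = 1.687e-08 in edgeR). Pls3, an actin-bundling plastin, rose by 0.13 on the log2 scale (edgeR adjusted p = 0.00874), and Chp1, a calcineurin-like protein, by 0.16 (edgeR adjusted p = 0.0182). The third gene was Actn1, an actinin. None of these 3 was called in DESeq2, and none was called in edgeR without control library 1. Without control library 3, or without treated library 2, the list had 1 gene called higher.

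For S100a4 and S100a14, with the highest and the lowest log2 fold change of the 8, the genes with the most similar values over the 6 libraries were sought among 4733 genes with a mean of at least 50 CPM. The measure was the root mean square difference of centred log2 CPM. For S100a4 these were Cttnbp2nl (0.0248), Ereg (0.0349) and Atxn1l (0.0380), which had log2 fold changes of 0.29, 0.28 and 0.24. For S100a14 they were Cfdp1 (0.0245), Colgalt1 (0.0261) and Gm10231 (0.0264), with log2 fold changes of -0.09, -0.10 and -0.08, none of them called. The likeness holds over 6 libraries of 2 groups and is a description.

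In the authors' deposited table of the same comparison, S100a4 has a log2 fold change of 0.27 with an FDR of 0.000592 and S100a1 one of 0.24 with an FDR of 0.0416. The other 6 S100 genes have an FDR of at least 0.265 in the authors' deposited table.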

How the data were processed

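Polyadenylated RNA from KPL cells was sequenced after library preparation with a kit not named as directional, per the labels' protocols. The authors' deposited file holds raw read counts per Ensembl gene, and a second deposited table holds the authors' log2 fold changes and p-values. Per the submitters' processing notes, the tools were edgeR, bedtools 2.26.0, Bowtie2, Bowtie 1.1.2 and TopHat2 2.1.0, and the builds GRCm38.p6, mm10, GRCh37 and hg19, all without a stated role. How the counts were made is not given in the sources used here, and multi-copy or overlapping genes may share reads.

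From 38951 lines, 27 repeats were removed. Counts were fitted with edgeR 4.0.16 in R 4.3.3 (TMM scaling, filterByExpr with a minimum count of 10, robust quasi-likelihood F test, two-sided, group only), and p-values were adjusted by Benjamini-Hochberg over 13355 genes, which hold 99.7% of reads. CPM use TMM-scaled library sizes. Intervals are 95%. Within groups, libraries differed by a chi-square per degree of freedom of 1.26 to 1.48. Alternatives used DESeq2 1.42.0, limma 3.58.1 and other scalings and filters.

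The members and lists were chosen with earlier results of these data known. Named genes are all S100 genes of the lists, Lin9, the annexin, Ahnak, Cacybp and Myh9 partners, the 3 genes with the smallest p among those called in each partner list, the nearest tested neighbours, and the most similar genes. Cell type markers come from a list of their own. S100a2, Actn1, Anxa8 and Anxa13 fall outside these rules and were named after their values were seen.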

Additional observations from a re-analysis of the deposited data

How the results depend on the processing

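With DESeq2, 209 genes were called higher and 367 lower, 1 of the 8 S100 genes was called higher and no EF-hand gene was called higher (0 called, 4 at an unadjusted p under 0.05), while 1 was called lower. Against a 1.5-fold threshold (edgeR glmTreat), 0 genes were called higher and 45 lower (44 and 92 at an unadjusted p under 0.05), and the 8 S100 genes, the annexins, the binding partners and the EF-hand genes had 0 calls and 0 genes at an unadjusted p under 0.05. S100a3 and S100a7a lost their calls there, with 1 of the 2 at an unadjusted p under 0.05. Lin9 kept its log2 fold change of -0.49 but was not called there (adjusted p = 1). The number of binding partners called higher was 3 with library totals alone and 2 with limma-voom. With 1 library left out, genes called higher ran from 403 (without control library 1) to 542 and lower from 508 to 643, S100 genes called higher from 1 to 2, annexins from 3 to 5, binding partners from 1 to 2 higher and from 0 to 1 lower, and EF-hand genes from 0 to 3. Changes near 0 turned sign without being called: S100a10 was 0.0066 with library totals alone, 0.0099 without control library 1 and 0.021 without treated library 2, S100a11 was 0.0039 without treated library 1, and S100a16 was 0.0062 with library totals alone and 0.0086, 1.98e-05 and 0.017 without control library 2, control library 3 and treated library 1. Myh9 was -0.00028 without treated library 2, Chtop 0.011 without control library 3 and Them4 -0.022 without treated library 3. Of 128 values of the 8 S100 genes under alternatives, 113 kept direction and call, 7 lost the call and 8 turned sign, and the cause was not tested. With 1 library left out, the lowest or highest values on the unturned side were -0.019 for S100a10, -0.071 for S100a11, -0.018 for S100a16, 0.042 for Myh9, -0.040 for Chtop and 0.24 for Them4. With the replicate number as a block, 579 genes were higher and 665 lower, and 2 S100 genes were higher and 0 lower. The numbers share nothing further in the labels. Each gene's group mean was subtracted from its log2 CPM, and the remainders were correlated between control and treated libraries. Same-numbered libraries gave correlations of -0.00826, 0.0103 and -0.0270, and differently numbered ones gave -0.0213 to 0.0286. Among the tested S100 genes, depth limits S100a1, S100a13, S100a3 and S100a7a most.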
